A study of Rattus norvegicus with 17 samples.

Results

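The genes described here copy the DNA of a dividing cell or carry it from G1 into S phase. They were followed in CD4+ T cells of rats that ate 3 amounts of vitamin D. The list held 42 genes, each found on the array by its symbol. A gene was represented by its transcript cluster, the set of probes for 1 transcript, and, where it had more than 1, by the cluster of highest mean over the 17 arrays. Of the 42 genes, 40 had a cluster annotated to that gene alone, and 39 of those 40 were bright enough to be among the 10879 genes tested. Mcm3 and Mcm4, subunits of the replicative helicase, had no such cluster and were not analysed here. E2f1, a transcription factor that switches on S phase genes, had a mean log2 value of 5.115, below the level of 5.321 that a gene needed to be tested. Its values ran from 4.904 to 5.128 on the deprived diet, from 4.848 to 5.339 on the regular diet and from 5.123 to 5.373 on the supplemented diet.

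In G1, the origin recognition complex, Cdc6 and Cdt1 load the Mcm helicase onto origins, and geminin stops them from loading it again until the next cycle. G1 and S phase kinases then switch the helicase on with the help of Cdc45 and the GINS complex, and primase, the polymerases and the sliding clamp copy the strands from nucleotides made by ribonucleotide reductase and thymidylate synthase. Resting T cells keep most of these genes low, and T cells that meet their antigen in a draining lymph node induce them as they enter the cell cycle.

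RNA came from CD4+ T cells that had been sorted by flow cytometry out of the inguinal nodes of female rats of the inbred Dark Agouti strain. This strain readily develops experimental autoimmune encephalomyelitis, used as a model of multiple sclerosis. All rats had been immunized with myelin oligodendrocyte glycoprotein (MOG) 7 days earlier, so no unimmunized group was compared. The deprived diet held 0 IU of vitamin D (5 arrays, replicates 2 to 6), the regular diet 2 IU (6 arrays) and the supplemented diet 10 IU (6 arrays), fed from 5 weeks before the immunization until the end. The amount of feed behind these IU, and whether an array held 1 rat or a pool, were not stated in the sources used here. The values are log2 expression values, so a difference of 1 is a doubling. Single genes are compared between arrays and not ranked against each other, since levels of different probe sets cannot be ranked. Exceptions are the pairs of genes, read only by how their difference changes between diets, and the grouping and correlation of genes by level.

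The supplemented arrays differed as a whole in the spread of their values, and counts of cell type markers are set beside it. The spread of an array, the standard deviation (SD) of all its log2 values, was 1.908 to 1.972 for the supplemented diet, 2.001 to 2.063 for the regular diet and 2.027 to 2.073 for the deprived diet, and was smallest on supplemented replicates 2 and 5. Of 12 T cell markers tested, 5 were lower on the supplemented than on the regular diet and 0 were higher. The list's mean per array was 10.07 to 10.26 on the supplemented and 10.3 to 10.51 on the regular diet. Of all genes tested, 22.9% were lower and 10.8% higher. Of those above a mean log2 value of 7.213, 42.4% were lower, so the T cell count was near the share of bright genes. Cd4, the marker of the sort, was bright on all arrays and read 9.01 to 9.878 on the supplemented arrays against 10.09 to 10.25 on the regular arrays, a change of -0.59 (standard error, SE, 0.11, n = 6 and 6, adjusted p = 0.000301). Of 8 B cell markers tested, 5 were higher. Of 13 myeloid markers tested, 3 were higher, and the list's mean per array was 6.318 to 6.398 on the supplemented diet and 6.135 to 6.249 on the regular diet. The mean of the B cell list was 6.226 to 6.502 and 5.989 to 6.349. Both list means lay below 7.213. The share of all genes at such levels that were higher was not taken, so these 2 counts have no comparison at like level. Of 8 dendritic cell markers, 0 passed. Of 7 markers of CD8 T and NK cells, and of 10 of stroma and endothelium, 1 each was higher and 1 lower. Of 5 plasma cell and 2 red cell markers, 1 each was higher. The myeloid markers Itgam, Adgre1 and S100a8 and the B cell marker Ms4a1 lay below the level needed to be tested. The part of these differences in the changes below was not tested, beyond the fits with each as a covariate. In sorted cells measured in bulk, fewer cycling cells and less of a transcript per cell cannot be told apart.

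The letters of the promoters were looked at for what the genes share beyond their names. Promoters of 34 of the 42 genes were matched in RefSeq (GRCr8, 250 bases before the start of transcription to 50 bases after it). E2F factors, which time the G1 to S switch, bind sites such as TTTCCCGC, TTTGGCGC, TTTCGCGC and TTTGCCGC. On either strand, 16 of the 34 promoters (47.1%) held at least 1 of these sites, as did 2.25% of all 27457 promoters and 3.68% of the 9024 promoters of tested genes. Only these spellings are counted as E2F sites here, so a promoter said to hold none may hold another form. The CCAAT letters stood in 64.7% of the 34, 37.7% of all promoters and 37.9% of those of tested genes. The GC box GGGCGG stood in 67.6%, 34.9% and 59.0% of them, and the cell cycle element TTTGAA in 5.88%, 18.1% and 11.9%. The 250 bases before the start are shown for 5 genes to set genes that fell with and without an E2F site beside 1 that holds sites and did not pass. Cdk4 (chr7:64771203-64771452, + strand) and Pcna (chr3:139955821-139956070, - strand) fell on the supplemented diet and hold no E2F site. Mcm7 (chr12:22163179-22163428, - strand) and Mcm6 (chr13:42404353-42404602, - strand) fell and hold 2 each, and Gins1 (chr3:160184670-160184919, + strand) holds 2 and did not pass. Capitals mark E2F sites and, in Cdk4, the E-box CACGTG, a palindrome that Myc family factors can bind. The sequences run 5′ to 3′ along the gene's strand.
Cdk4: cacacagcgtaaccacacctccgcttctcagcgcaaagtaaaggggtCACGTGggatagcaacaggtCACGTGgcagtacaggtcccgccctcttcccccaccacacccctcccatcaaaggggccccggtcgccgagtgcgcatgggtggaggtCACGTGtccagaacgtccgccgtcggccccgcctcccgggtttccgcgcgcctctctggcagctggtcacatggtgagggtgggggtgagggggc
Pcna: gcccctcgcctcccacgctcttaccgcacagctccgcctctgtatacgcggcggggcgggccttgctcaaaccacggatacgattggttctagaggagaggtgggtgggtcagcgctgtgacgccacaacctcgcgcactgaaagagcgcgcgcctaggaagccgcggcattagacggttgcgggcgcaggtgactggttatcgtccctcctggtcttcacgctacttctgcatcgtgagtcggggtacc
Mcm7: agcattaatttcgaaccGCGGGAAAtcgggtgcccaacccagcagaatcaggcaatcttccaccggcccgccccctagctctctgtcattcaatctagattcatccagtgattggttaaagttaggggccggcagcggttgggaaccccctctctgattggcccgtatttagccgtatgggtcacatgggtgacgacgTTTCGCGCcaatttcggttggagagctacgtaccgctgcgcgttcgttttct
Mcm6: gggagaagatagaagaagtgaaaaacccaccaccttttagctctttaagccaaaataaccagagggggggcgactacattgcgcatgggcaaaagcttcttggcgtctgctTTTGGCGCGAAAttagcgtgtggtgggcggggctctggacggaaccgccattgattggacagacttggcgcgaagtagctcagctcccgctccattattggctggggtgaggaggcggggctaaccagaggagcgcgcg
Gins1: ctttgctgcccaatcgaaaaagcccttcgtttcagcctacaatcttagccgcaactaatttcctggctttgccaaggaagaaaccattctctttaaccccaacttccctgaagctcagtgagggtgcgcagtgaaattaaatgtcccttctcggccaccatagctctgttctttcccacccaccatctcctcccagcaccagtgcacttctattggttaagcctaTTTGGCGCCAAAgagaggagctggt
The 12 capital letters in Gins1 and in Mcm6 are 2 overlapping E2F sites, 1 on each strand. The CACGTG letters occurred 3 times in Cdk4 (first bases at -203, -183 and -95 from the start) and 1 time each in Mcm2, Rpa1 and Fen1, so in 11.8% of the 34 promoters, against 6.65% of all promoters and 9.08% of those of tested genes. This motif was added after the Cdk4 sequence had been seen. E2F sites stood in 8 of the 17 promoters of genes that were lower on the supplemented diet and in 7 of the 16 promoters of the other genes tested. The median change from the regular diet was -0.29 for the genes tested that hold an E2F site and -0.12 for those without one. A match of letters is a description and not a sign of binding.

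Supplemented and regular diets were compared first, to see how extra vitamin D bears on the replication genes. Of the 39 genes tested, 19 fell, 0 rose and 20 did not pass (limma with Benjamini-Hochberg adjustment over all genes at 0.05). Among all 10879 genes tested, 22.9% fell and 10.8% rose, so the share of 48.7% that fell among the replication genes lay above the background and the share that rose lay below it. With each array centred on its median, 24 of the 39 genes fell and 0 rose, against 30.7% and 2.87% of all genes. The median change of the 39 genes was -0.21, and that of all genes 0. On every supplemented array, between 26 and 31 of the 39 genes lay below their mean on the regular diet. The regular arrays had 10 to 27, but that mean was taken over these same arrays, so they are no independent comparison. By diet means, 30 of the 39 genes were lower on the supplemented than on the regular diet, against 5429 of all 10879. The groups did not overlap for 9 genes, all of them lower (23.1%, against 9.92% of all genes). In the 17 fits that each left out 1 array, 14 of the 19 calls were kept throughout.

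**Figure D1:**
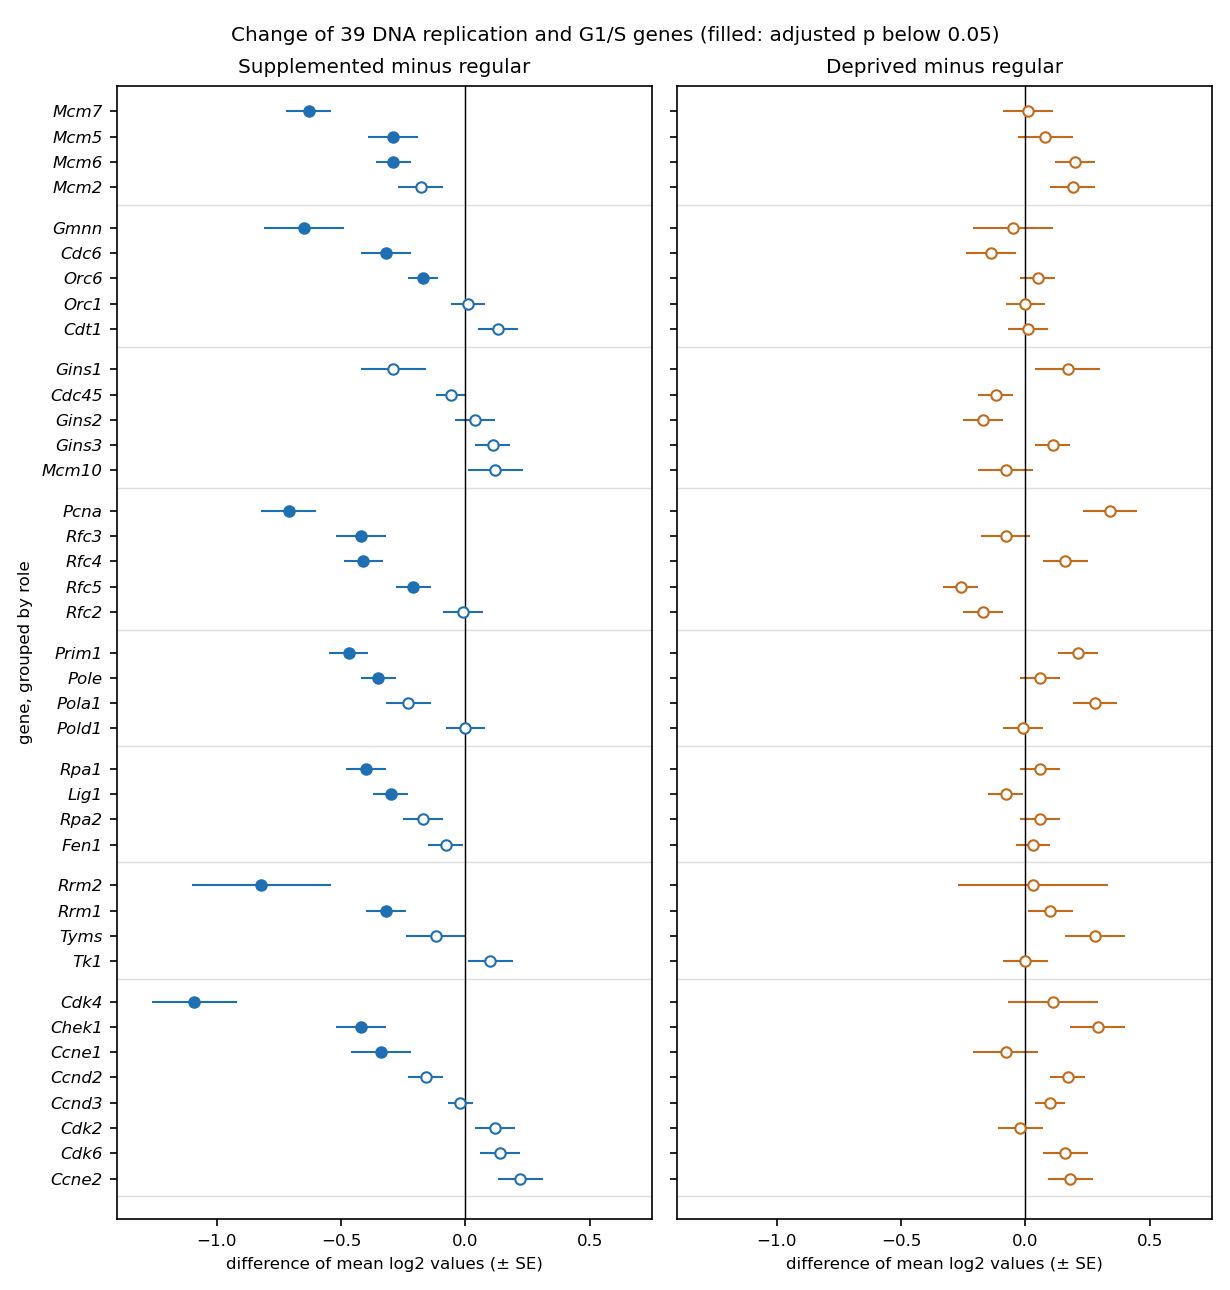
Difference of mean log2 values (x axis, bars ± SE) for the 39 genes in the order of their roles, supplemented minus regular on the left and deprived minus regular on the right. Filled points passed at adjusted p below 0.05: 19 genes on the left, all below 0, with Cdk4 at -1.09 farthest from 0, and 0 genes on the right.

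Level and change went together in the whole data set, which bears on how the 39 genes are read. The correlation of mean level and change, taken across genes that share the same arrays and are no replicates, was -0.511 over the 39 genes and -0.505 over all 10879. Of the 19 replication genes above their own median level of 7.213, 12 fell (63.2%), against 42.4% of the 5099 genes at such levels. Of the 20 at or below that level, 7 fell (35.0%), against 5.66% of 5780 genes. Both shares of the replication genes lay above those of the genes at like levels, and this difference was not tested.

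**Figure D2:**
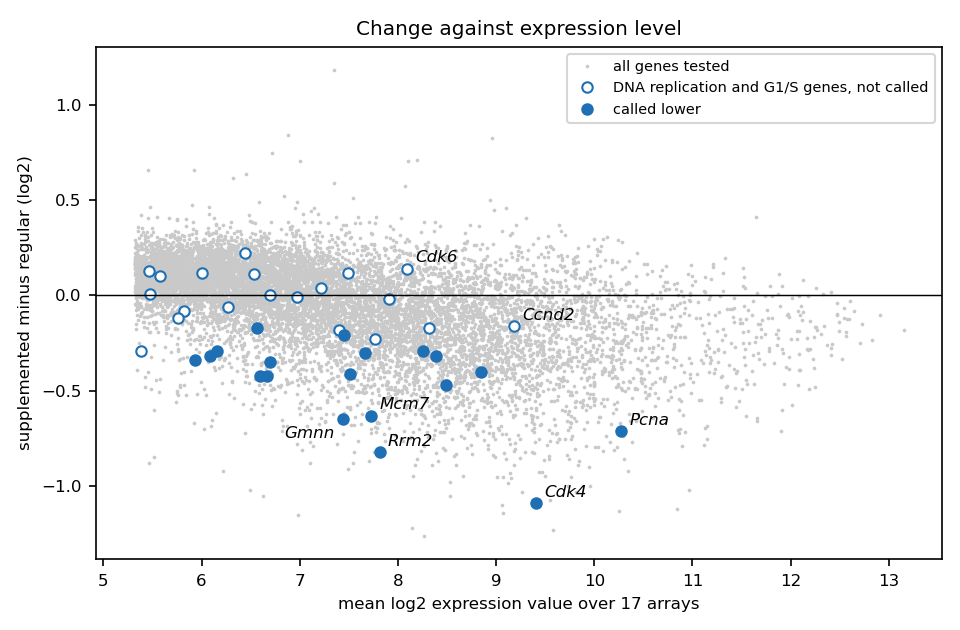
Supplemented minus regular difference (y axis, log2) against the mean log2 value over the 17 arrays (x axis) for all 10879 genes tested (grey) and the 39 replication and G1/S genes (blue, filled where they fell). Bright genes lie lower than dim ones in both sets, and Cdk4, Rrm2 and Pcna lie near the lower edge of the cloud.

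The ring of Mcm proteins that unwinds DNA was lower on the supplemented diet in 3 of its 4 subunits tested. Mcm7 read 6.953, 7.369 and 7.63 (lowest, median and highest of 6 arrays) on the supplemented diet and 7.866, 7.936 and 8.071 on the regular diet, and 8.046, 8.028, 7.908, 7.874 and 7.928 on the deprived arrays of replicates 2 to 6. Every supplemented array lay below all arrays of the other diets. The change was -0.63 (SE 0.09, n = 6 and 6, adjusted p = 3.37e-05), so that Mcm7 fell by 35.2% on the linear scale. Mcm6 read 7.798, 8.03 and 8.184 on the supplemented and 8.104, 8.293 and 8.471 on the regular diet, a change of -0.29 (SE 0.07, adjusted p = 0.00478), with 4 of 6 supplemented arrays below the lowest regular one. After quantile or cyclic loess normalization the adjusted p of Mcm6 was 0.0554 and 0.0623. Mcm5 changed by -0.29 (SE 0.10, adjusted p = 0.0359), a call that was lost without supplemented replicate 1, 2 or 4 or regular replicate 1, 2 or 5 (adjusted p up to 0.0829). For Mcm2 the difference was -0.18 (95% interval -0.36 to 0.00, adjusted p = 0.107).

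Of the genes that license origins, Gmnn, Cdc6 and Orc6 fell, and Orc1 and Cdt1 did not pass. Gmnn encodes geminin, the inhibitor of Cdt1. Its values were 6.762, 6.812 and 7.524 on the supplemented diet, 7.433, 7.616 and 8.11 on the regular diet, and 7.487, 7.927, 7.726, 7.927 and 7.122 on the deprived diet. Supplemented replicates 3 and 6 reached the regular range, and the other 4 lay well below it. The change was -0.65 (SE 0.16, adjusted p = 0.00273). Cdc6, which helps to load the helicase, changed by -0.32 (SE 0.10, adjusted p = 0.0176), and by an amount that missed the threshold without regular replicate 3 (adjusted p = 0.0531). Orc6, the smallest subunit of the origin recognition complex, changed by -0.17 (SE 0.06, adjusted p = 0.0442), and its call was lost in 12 of the 17 fits without 1 array (adjusted p up to 0.105). Orc1, the large subunit that binds ATP, differed by 0.01 (95% interval -0.14 to 0.17) and Cdt1, the loader itself, by 0.13 (-0.03 to 0.30).

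None of the 5 genes of this list that turn the loaded helicase into an active one passed. Another GINS subunit, Gins4, stood outside the list and fell, as given below with the neighbouring lists. Gins1 differed by -0.29 (95% interval -0.55 to -0.03, adjusted p = 0.0819), Cdc45 by -0.06 (-0.19 to 0.07), Gins2 by 0.04 (-0.13 to 0.20), Gins3 by 0.11 (-0.04 to 0.26) and Mcm10, which binds the helicase at firing origins, by 0.12 (-0.10 to 0.35). Of these intervals, the one of Gins1 alone reached -0.29, the change of Mcm5 and of Mcm6. Gins1 read 4.948 to 5.316 on the supplemented and 5.14 to 5.912 on the regular arrays, and passed as lower after quantile normalization (-0.38, adjusted p = 0.0295), cyclic loess (-0.40, adjusted p = 0.0241) and median centring (-0.37, adjusted p = 0.0285), and without regular replicate 3 (adjusted p = 0.0487).

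The sliding clamp and 3 of the 4 subunits of its loader in this list fell. The large loader subunit, Rfc1, stood outside the list and also fell, as given below. Pcna, the clamp that tethers polymerases to DNA, read 9.423, 9.646 and 10.26 on the supplemented diet, 10.26, 10.4 and 10.59 on the regular diet, and 10.55, 10.62, 10.91, 11.07 and 10.67 on the deprived diet. All 6 supplemented arrays lay below all regular ones. Replicate 3 came closest, equal to the lowest regular array at the digits shown, and the next highest supplemented array stood at 9.696. Pcna changed by -0.71 (SE 0.11, adjusted p = 4.7e-05). Rfc3 read 6.024, 6.424 and 6.531 against 6.546, 6.692 and 7.116 on the regular diet (-0.42, SE 0.10, adjusted p = 0.00203). Rfc4 read 6.959, 7.14 and 7.472 against 7.512, 7.597 and 7.785 (-0.41, SE 0.08, adjusted p = 0.000592). For both loader subunits all supplemented arrays lay below all regular ones. Rfc5 changed by -0.21 (SE 0.07, adjusted p = 0.0192, and 0.0596 after quantile normalization). Rfc2 differed by -0.01 (95% interval -0.17 to 0.15).

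Primase and 1 of the 3 polymerases fell. Prim1, the catalytic subunit of primase, read 8.014, 8.141 and 8.26 on the supplemented diet, 8.369, 8.531 and 8.9 on the regular diet, and 8.847, 8.904, 8.803, 8.878 and 8.62 on the deprived diet. No supplemented array reached any other array, and the change from the regular diet was -0.47 (SE 0.08, adjusted p = 0.000139). Pole, the catalytic subunit of the leading strand polymerase, read 6.172, 6.457 and 6.677 against 6.744, 6.806 and 6.863 on the regular diet, again without overlap (-0.35, SE 0.07, adjusted p = 0.00084). Pola1, the polymerase that extends the primer, differed by -0.23 (95% interval -0.41 to -0.04, adjusted p = 0.0504). It passed without deprived replicate 3, supplemented replicate 1, 2 or 3 or regular replicate 1 or 6 (adjusted p from 0.0279 to 0.0457). Pold1, the lagging strand polymerase, differed by 0.00 (-0.16 to 0.16), and its supplemented arrays ran from 6.442 to 6.975 around regular values of 6.537 to 6.951.

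Among proteins that coat and seal the new strands, Rpa1 and Lig1 fell. Rpa1, the large subunit of the complex that covers unwound DNA, read 8.342, 8.575 and 8.791 on the supplemented diet and 8.901, 8.946 and 9.141 on the regular diet, without overlap (-0.40, SE 0.08, adjusted p = 0.000469). Lig1, the ligase that joins Okazaki fragments, changed by -0.30 (SE 0.07, adjusted p = 0.00255), with 5 of 6 supplemented arrays below the lowest regular array. Rpa2, another subunit of the coating complex, differed by -0.17 (95% interval -0.33 to -0.01, adjusted p = 0.098). Without supplemented replicate 6, which stood at 8.539 above 5 arrays at 8.048 to 8.2, Rpa2 passed as lower (adjusted p = 0.00924). Fen1, the nuclease that trims flaps, differed by -0.08 (-0.23 to 0.06), and passed as lower with cyclic loess (-0.19, adjusted p = 0.0486).

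Both subunits of ribonucleotide reductase, which makes deoxynucleotides, fell, and the other 2 genes of deoxynucleotide supply did not pass. Rrm2, the subunit that holds the radical and is made in S phase, read 6.872, 7.104 and 8.003 on the supplemented diet, 7.298, 8.185 and 8.631 on the regular diet, and 7.921, 8.844, 8.261, 8.767 and 6.831 on the deprived diet. It varied more within a diet than any other of the 39 genes (SD 0.61, against a median of 0.148), and its groups overlapped. The change was -0.82 (SE 0.28, adjusted p = 0.0289), and it was lost without supplemented replicate 1, 2 or 5 or regular replicate 1, 2 or 6 (adjusted p up to 0.0746). A second transcript cluster of Rrm2 differed by -1.01. Rrm1, the large subunit, read 7.976, 8.148 and 8.33 against 8.352, 8.423 and 8.801 on the regular diet, without overlap (-0.32, SE 0.08, adjusted p = 0.00494), but missed the threshold after cyclic loess (adjusted p = 0.0629) and quantile normalization (0.0616). Its second cluster, with a mean of 4.489, lay below the level needed to be tested. Tyms, which makes thymidylate, differed by -0.12 (95% interval -0.37 to 0.12), and the thymidine kinase Tk1 by 0.10 (-0.08 to 0.29).

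The G1 and S phase kinases and cyclins split. Cdk4, the kinase that D cyclins activate in G1, had the largest change of the 39 genes. It read 7.91, 8.875 and 9.163 on the supplemented diet, 9.55, 9.743 and 10.07 on the regular diet, and 10.05, 10.12, 9.972, 9.65 and 9.579 on the deprived diet. All supplemented arrays lay below all others, and replicates 2 and 5, the arrays of smallest spread, were the lowest at 8.121 and 7.91. The change was -1.09 (SE 0.17, adjusted p = 5.76e-05), so that Cdk4 fell by 53.0% on the linear scale, and it was -0.76 without those 2 arrays (adjusted p = 9.19e-05). Chek1, the checkpoint kinase that restrains S phase when forks stall, read 5.947, 6.296 and 6.714 against 6.529, 6.759 and 6.858 on the regular diet (-0.42, SE 0.10, adjusted p = 0.00299). Ccne1, a cyclin that drives Cdk2 at the G1/S boundary, read 5.437, 5.765 and 5.973 against 5.858, 6.019 and 6.435 (-0.34, SE 0.12, adjusted p = 0.032). That call was lost without supplemented replicate 4 or 5 or regular replicate 2 or 6 (adjusted p up to 0.0869).

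The other 5 of these genes did not pass. Cdk6, which also pairs with D cyclins, read 7.978, 8.13 and 8.363 on the supplemented and 7.701, 8.024 and 8.231 on the regular diet, a difference of 0.14 (95% interval -0.03 to 0.31, adjusted p = 0.185). It passed as higher with cyclic loess (0.23, adjusted p = 0.042) and with quantile normalization (0.24, adjusted p = 0.0361). The deprived arrays of Cdk6 read 8.072 to 8.248, and supplemented minus deprived was -0.02 (-0.20 to 0.15). Cdk2 differed by 0.12 (-0.05 to 0.30) between the supplemented and regular diets. The D cyclins Ccnd2 and Ccnd3 differed by -0.16 (-0.31 to -0.02, adjusted p = 0.0638) and -0.02 (-0.13 to 0.09). Ccnd2 read 8.826, 9.012 and 9.28 against 9.137, 9.185 and 9.236 on the regular diet, and without supplemented replicate 2, the array at 9.28, it passed as lower (adjusted p = 0.0132). Ccne2, the sister of Ccne1, read 6.349, 6.494 and 6.769 against 6.252, 6.308 and 6.386 on the regular diet, a difference of 0.22 (0.04 to 0.39, adjusted p = 0.0542), with 5 of 6 supplemented arrays above the highest regular array. It passed as higher without deprived replicate 3 or 6 or supplemented replicate 6 (adjusted p = 0.049, 0.0237 and 0.0325). The deprived arrays of Ccne2 read 6.124 to 6.705, and 4 of them lay above the highest regular array. Supplemented minus deprived was 0.03 for Ccne2 (-0.15 to 0.22).

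**Figure D3:**
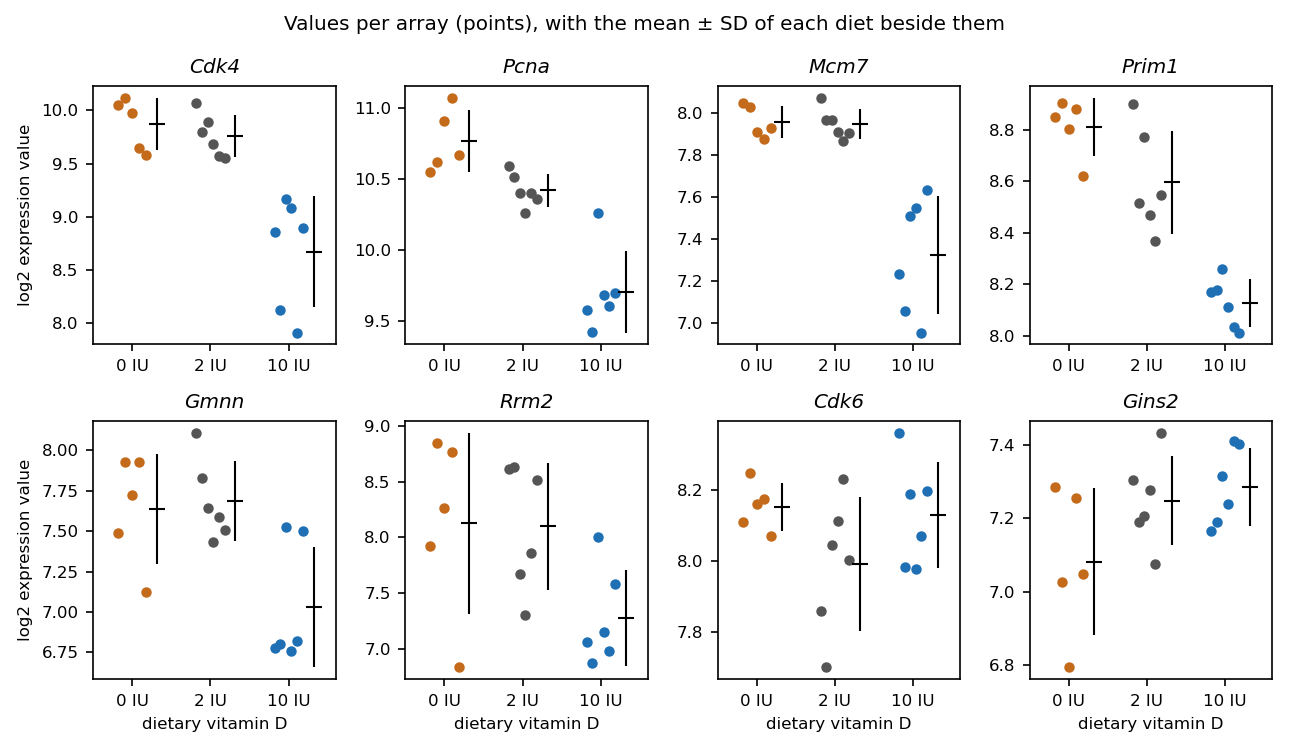
Log2 expression values per array (y axis; points) with the mean ± SD of each diet (bars) at 0, 2 and 10 IU of vitamin D (x axis) for 6 genes that fell on the supplemented diet and for Cdk6 and Gins2, which did not pass against the regular diet. In Cdk4, Mcm7 and Prim1 every 10 IU array lies below every 0 and 2 IU array, while the Rrm2 groups overlap.

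Genes with related tasks were also compared within each array. For 8 pairs the difference of the 2 log2 values was taken on each array and its mean compared between diets with two-sided exact permutation tests, 16 tests in all with adjusted p-values over them. Between the supplemented and regular diets, 5 of the 8 pairs differed, and between the deprived and regular diets 0 (lowest unadjusted p = 0.208, so 0 also at an unadjusted p below 0.05). Cdk4 minus Cdk6 was 0.54 ± 0.49 (SD, n = 6) on the supplemented and 1.77 ± 0.34 (SD, n = 6) on the regular arrays, and the groups did not overlap (exact permutation p = 0.00216, the smallest these group sizes allow, adjusted p = 0.0231). On the deprived arrays it was 1.72 ± 0.21 (SD, n = 5). Only the change of such a difference is read here, since its size depends on the probes. The paired genes differ in level, so these differences are not free of the spread of an array. Cdk4 minus Cdk6 was lowest on supplemented replicates 2 and 5, the arrays of smallest spread, at 0.14 and -0.16. Without these 2 arrays it changed by -0.95 (adjusted p = 0.0762), and 0 of the 8 pairs passed the exact permutation tests (6 at an unadjusted p below 0.05), whose smallest possible p with 4 and 6 arrays is 0.00952. With array spread as a covariate in a least squares fit, run without a test, the change was -0.15 (SE 0.28).

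The 2 E cyclins moved apart between the supplemented and regular diets. On the deprived arrays Ccne1 minus Ccne2 was -0.50 ± 0.38 (SD, n = 5), from -1.05 to -0.08, which overlapped with both other diets. No pair was tested between the supplemented and deprived diets. Ccne1 minus Ccne2 was -0.80 ± 0.29 (SD, n = 6) on the supplemented and -0.24 ± 0.24 (SD, n = 6) on the regular arrays (exact permutation p = 0.00433, adjusted p = 0.0231). Pold1 minus Pole was 0.25 ± 0.18 against -0.10 ± 0.11 (exact permutation p = 0.00433, adjusted p = 0.0231, n = 6 and 6), so the transcript of the leading strand polymerase was lower relative to that of the lagging strand one. Cdt1 minus Gmnn, the loader against its inhibitor, was -1.48 ± 0.38 against -2.26 ± 0.29 (exact permutation p = 0.00649, adjusted p = 0.026, n = 6 and 6). Supplemented replicates 3 and 6 lay at -2.08 and -1.83 and the other 4 at -1.30 to -1.17. Rpa1 minus Rpa2 was 0.38 ± 0.17 against 0.61 ± 0.07 (exact permutation p = 0.00866, adjusted p = 0.0277, n = 6 and 6). The last 2 pairs missed the threshold after cyclic loess (adjusted p = 0.0606 and 0.0623) and without supplemented replicate 4, 5 or 6 or regular replicate 1, 2 or 3 (adjusted p = 0.0519 and 0.0554). Rpa1 minus Rpa2 did so without regular replicate 4 too.

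For 3 pairs no difference in response passed. Ccnd3 minus Ccnd2 differed by 0.14 between the diets (exact permutation p = 0.136, adjusted p = 0.273, n = 6 and 6), and by 0.21 without supplemented replicate 2, where it passed (adjusted p = 0.0416). Rrm1 minus Rrm2 differed by 0.51 between the diets (exact permutation p = 0.108, adjusted p = 0.262, n = 6 and 6), with arrays from 0.17 to 1.46 on the supplemented and -0.23 to 1.07 on the regular diet. Orc6 minus Orc1 differed by -0.18 (exact permutation p = 0.115, adjusted p = 0.262, n = 6 and 6).

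**Figure D4:**
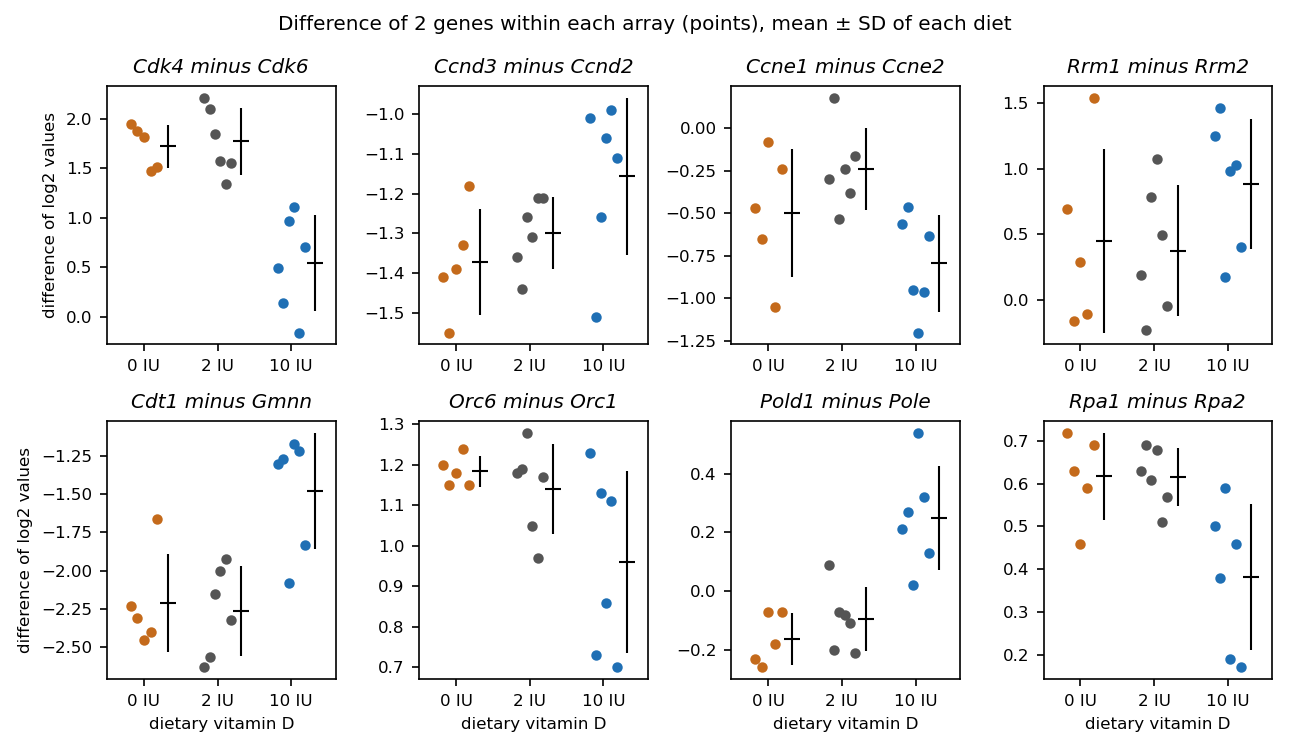
Difference of the log2 values of 2 genes on the same array (y axis; points) with the mean ± SD of each diet (bars) at 0, 2 and 10 IU of vitamin D (x axis) for the 8 pairs. The 10 IU arrays lie apart for Cdk4 minus Cdk6 (-0.16 to 1.11, against 1.34 to 2.21 at 2 IU), and overlap with the 2 IU arrays in the other pairs.

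The deprived and regular diets were compared next, to see how lack of vitamin D bears on these genes. In limma 0 of the 39 genes passed, where 1.49% of all genes rose and 0.184% fell. At an unadjusted p below 0.05 there were 10 of 39 genes (25.6%, against 16.7% of all genes), 8 with a higher and 2 with a lower mean on the deprived diet. The median difference was 0.06, and the range was -0.26 to 0.34. Pcna differed by 0.34 (SE 0.11, n = 5 and 6, adjusted p = 0.136), and 4 of the 5 deprived arrays lay above the highest regular array of 10.59. Chek1 read 6.896, 7.146, 7.135, 7.085 and 6.84 on the deprived arrays, of which 4 exceeded the highest regular value of 6.858 (0.29, SE 0.11, adjusted p = 0.156). Pola1 read 7.892, 8.272, 7.908, 8.196 and 7.978 against a regular median of 7.753 (0.28, SE 0.09, adjusted p = 0.121).

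Mcm6 and Prim1 had differences of the same sign, with 8.428, 8.577, 8.508, 8.543 and 8.452 for Mcm6 (0.20, SE 0.08, adjusted p = 0.185) and a difference of 0.21 for Prim1 (SE 0.08, adjusted p = 0.19). Rfc5 had the smallest p and the opposite sign. Its deprived values were 7.338, 7.199, 7.369, 7.563 and 7.216, of which 4 lay below the lowest regular value of 7.511 (-0.26, SE 0.07, adjusted p = 0.06). Weighting the arrays by quality brought 6 genes past the threshold, Pcna, Chek1, Pola1, Mcm6 and Prim1 higher and Rfc5 lower. In that fit 6.19% of all genes were higher and 1.99% lower. Leaving the supplemented arrays out of the fit brought 3, Pcna and Chek1 higher and Rfc5 lower, against 3.68% and 0.607% of all genes. Both fits called more of all genes than the main fit did (1.49% and 0.184%). Without deprived replicate 5 or supplemented replicate 1, Rfc5 passed (adjusted p = 0.0326 and 0.0469), and without supplemented replicate 3, Pcna passed (adjusted p = 0.0413).

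Supplemented and deprived diets, the ends of the range, differed in 23 of the 39 genes, 22 lower and 1 higher on the supplemented diet, against 28.6% lower and 18.6% higher among all genes. After median centring it was 26 lower and 0 higher, against 38.4% and 5.58%. After quantile normalization it was 22 lower and 0 higher, against 19.4% and 13.4%. After cyclic loess it was 21 lower and 0 higher, against 19.9% and 12.6%. For 14 genes, all lower, the groups did not overlap (35.9%, against 17.7% of all genes with all supplemented arrays below). Pcna changed by -1.05 (SE 0.11, n = 6 and 5, adjusted p = 6.08e-07), so it fell by 51.9% on the linear scale, and Cdk4 by -1.20 (SE 0.18, adjusted p = 1.71e-05). Of the genes that had missed the threshold against the regular diet, 6 were lower here, namely Pola1 (-0.51, SE 0.09, adjusted p = 0.000142), Gins1 (-0.45), Tyms (-0.41), Mcm2 (-0.37), Ccnd2 (-0.34) and Rpa2 (-0.22). All 4 helicase subunits tested fell, by 0.37 to 0.64 on the log2 scale. Rfc5, whose means lay below that of the regular diet at both ends, differed by 0.05 (95% interval -0.10 to 0.20), and Cdc6 and Ccne1 did not pass either. Both contrasts with the supplemented diet use the same 6 arrays, so they are not independent.

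Some of these calls against the deprived diet were fragile. Without supplemented replicates 2 and 5, 17 of the 23 were kept, all lower, where 23.1% of all genes were lower and 10.5% higher. Calls lost there included Rfc3 (-0.21, adjusted p = 0.0865) and Tyms (-0.34, adjusted p = 0.0603). Ccnd2 and Rpa2 lost theirs after quantile normalization (-0.10, adjusted p = 0.349, and -0.07, adjusted p = 0.518) and after cyclic loess (-0.11, adjusted p = 0.259, and -0.07, adjusted p = 0.529). Lig1 lost its call after quantile normalization and cyclic loess as well (-0.15 with both, adjusted p = 0.121 and 0.13). Rrm2 lost its call after cyclic loess (-0.76, adjusted p = 0.0627). Rpa2 was also lost without deprived replicate 2, 3 or 4 or supplemented replicate 1, 2 or 5 (adjusted p up to 0.0759), and Rrm2 without deprived replicate 3 or 5 or supplemented replicate 2 (adjusted p up to 0.0795). Gins2, the gene that was higher (0.20, SE 0.08, adjusted p = 0.0484), lost its call in 11 of the 17 fits without 1 array, with adjusted p up to 0.18 without deprived replicate 4. Of the genes not called, 3 passed as lower after quantile normalization, cyclic loess and median centring alike. Cdc6 did so at -0.30, -0.30 and -0.28 (adjusted p = 0.0422, 0.0412 and 0.0432), Fen1 at -0.24, -0.25 and -0.22 (0.0126, 0.0105 and 0.0179), and Ccne1 at -0.38, -0.39 and -0.37 (0.0255, 0.0227 and 0.0244). Ccne1 also passed as lower without deprived replicate 5 (adjusted p = 0.023), Mcm10 as higher without deprived replicate 5 or supplemented replicate 1 (0.0236 and 0.0286), and Rfc2 as higher without deprived replicate 3 or regular replicate 1 (0.0386 and 0.0469). Across the 3 diets, limma's F test called 23 of 39 genes (59.0%, against 45.3% of all genes).

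Within a diet the arrays did not rank alike for all genes. The 39 genes moved together more weakly than mitosis genes, with a mean correlation between pairs of genes, after removing diet means over 17 arrays, of 0.142 for the 39 genes, 0.517 for 29 mitosis genes and 0.0104 for all genes tested. Deprived replicate 6 was the lowest deprived array in 20 of the 39 genes, among them Gmnn and Rrm2, and its mean of the mitosis genes, 6.548, was the lowest of its diet (6.548 to 7.276). Supplemented replicate 3 was the highest supplemented array in 14 genes, among them Pcna, Gmnn and Rrm2, and its mean of the mitosis genes, 6.801, was the highest of its diet (6.338 to 6.801). Regular replicates 1 and 2 were the highest regular arrays in 17 and 15 genes.

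Neighbouring lists of genes, which share no gene with the 39, moved as follows from the regular to the supplemented diet. Of 27 other replication genes tested, 10 fell and 1 rose, 37.0% and 3.7%. Tipin, which protects forks, changed by -0.61 (SE 0.10, adjusted p = 6.86e-05), the GINS subunit Gins4 by -0.53 (SE 0.09), Pole4 by -0.50 (SE 0.10) and the large clamp loader subunit Rfc1 by -0.43 (SE 0.09), and Chtf18 was the gene that rose (0.17, SE 0.06). Of 29 genes of nucleotide supply, 21 fell and 0 rose (72.4%). Prps1, which makes the sugar phosphate that nucleotide synthesis starts from, changed by -0.84 (SE 0.12), the nucleoside diphosphate kinase Nme1 by -0.89 (SE 0.12), the pyrimidine enzyme Umps by -0.65 (SE 0.09) and the purine enzyme Paics by -0.60 (SE 0.08).

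Of 31 other genes of G1/S control, 9 fell and 3 rose (29.0% and 9.68%), close to the background. Mnat1, the assembly factor of the kinase that activates other Cdks, changed by -0.53 (SE 0.11), the Cdk4 and Cdk6 inhibitor Cdkn2c by -0.54 (SE 0.12) and the methylation maintenance factor Uhrf1 by -0.36 (SE 0.09). Skp2, the ubiquitin ligase subunit that marks a Cdk inhibitor for removal, rose by 0.43 (SE 0.09, adjusted p = 0.0011), as did E2f5 (0.29) and Ccnh (0.20). Of 29 mitosis genes, 20 fell and 0 rose (69.0%), with Top2a at -1.22 (SE 0.28), Tpx2 at -1.15 (SE 0.21), Ccnb1 at -0.46 (SE 0.11) and Smc2 at -0.38 (SE 0.08). In the deprived to regular comparison, none of these 4 lists had a gene that passed except Rb1, the brake on E2F factors, among the G1/S control genes (adjusted p = 0.0103).

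**Figure D5:**
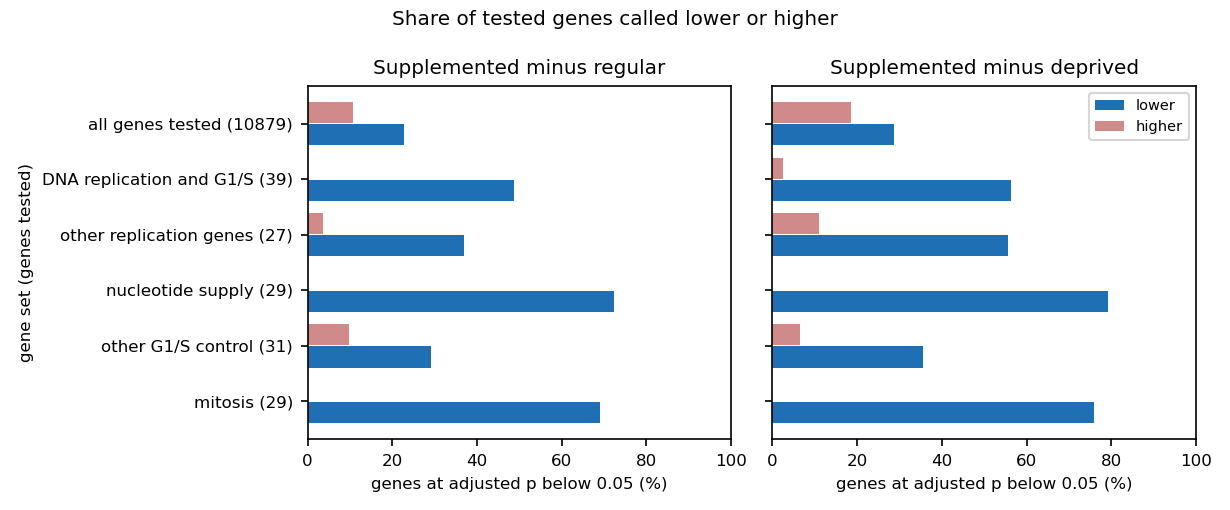
Share of tested genes called lower (blue) or higher (red) at adjusted p below 0.05 (x axis, percent) for all genes, the 39 replication and G1/S genes and 4 neighbouring lists (y axis), supplemented minus regular on the left and supplemented minus deprived on the right. On the left, 48.7% of the 39 genes were lower against 22.9% of all genes, and nucleotide supply (72.4%) and mitosis genes (69.0%) had larger shares.

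The fits with covariates bear on how far the diets can be separated from other properties of the arrays. With the mean of the myeloid markers as a covariate, 5 of the 39 genes were lower on the supplemented than on the regular diet, Mcm7, Pcna, Cdk4, Pole and Mcm5, where 5.99% of all genes were. The median change of the 39 genes was -0.23 in that fit and -0.21 without the covariate. Calls lost there included Gmnn (-0.77, adjusted p = 0.0744), Rfc3 (-0.50, adjusted p = 0.0607), Rpa1 (-0.40, adjusted p = 0.071) and Prim1 (-0.41, adjusted p = 0.0702). The myeloid mean was 6.318 to 6.398 on the supplemented, 6.135 to 6.249 on the regular and 6.119 to 6.299 on the deprived arrays. The supplemented arrays did not overlap with the others in it, so diet and the myeloid mean cannot be told apart here. With the spread of each array as a covariate, 0 of 39 genes passed and 0 of all 10879 in limma, with 3 and 1192 at an unadjusted p below 0.05. The median change of the 39 genes was -0.08 there, that of Cdk4 -0.01 (adjusted p = 0.987), that of Mcm7 -0.18 (adjusted p = 0.678) and that of Pcna -0.51 (adjusted p = 0.389). Spread did not overlap between the supplemented and the other arrays, so diet and spread cannot be told apart here. Quantile normalization, which gives the arrays a common distribution of values, was run without a covariate. After it, 17 of the 39 genes were lower and 1 was higher than on the regular diet, against 15.8% and 9.68% of all genes. The median change of the 39 genes was -0.19, and 16 calls of the main fit were kept. With the mean of the B cell markers as a covariate, 18 of the 39 genes were lower and 1 was higher, against 20.8% and 11% of all genes.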

How the data were processed

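The values the authors deposited are log2 expression per transcript cluster, made with RMA and Partek 6.0 per the submitters' processing notes. Their range (2.14 to 13.8) gave the log base. The probe file and scan batch were not stated in the sources used here. Of 29214 transcript clusters, the platform annotation, which can be old, gave 15310 1 gene symbol, 323 several and 13581 none. Names of 15279 of them were looked up in RefSeq (GRCr8), and none changed. The 14506 genes were cut to 10879 by leaving out the 25% with the lowest mean. Limma 3.58.1 in R 4.3.3 fitted 1 mean per diet (14 residual and 8.19 prior degrees of freedom) with Benjamini-Hochberg adjustment over all genes, and the code was tested on simulated data. Exact permutation tests used SciPy 1.17.1. All 39 genes tested are named by role, with values per array for the 12 largest calls against the regular diet, the 6 smallest p-values of the deprived diet and the 8 pairs. Other lists give up to 4 genes with the smallest p. The genes, lists and tests were chosen with earlier results of these data known. Nothing in the labels ties replicates to separate handling, so p-values measure only how these samples spread, and the number of arrays limits their precision. No 2 arrays held identical values. Alternatives were other normalizations, level filters, cluster choices, variance models, covariates, thresholds, 2 diets in a fit and each array left out, and 2 were added after seeing the data: leaving out supplemented replicates 2 and 5, and array spread as a covariate for the pairs.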

Additional observations from a re-analysis of the deposited data

Results flagged for a closer look

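In 8 of 117 groups of arrays of 1 gene and 1 diet, 1 array stood apart from the rest by Dixon's criterion, which chance alone meets in about 1 of 20 groups. Of these, 3 were in regular replicate 1. Rfc2 read 7.354 there against 6.904 to 7.01 on the other regular arrays, Rpa1 9.141 against 8.901 to 8.98, and Rrm1 8.801 against 8.352 to 8.459. In supplemented replicate 3, Pcna read 10.26 against 9.423 to 9.696 and Gins3 6.801 against 6.464 to 6.57. The remaining 3 arrays were regular replicate 3 with Orc1 at 5.162 (5.494 to 5.552 elsewhere), supplemented replicate 4 with Mcm2 at 6.863 (7.193 to 7.376) and supplemented replicate 6 with Rpa2 at 8.539 (8.048 to 8.2). Without regular replicate 1, Rpa1 and Rrm1 were still lower on the supplemented diet, and without supplemented replicate 3 so was Pcna.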

How the results depend on the processing

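Genes called between the supplemented and regular diets numbered 19, and 15 to 20 without 1 array, 14 with array weights, 5 with the myeloid covariate and 0 with array spread as covariate. Of all genes, 19.7% were lower and 6.91% higher with array weights, and 5.99% and 0.588% with the myeloid covariate. In the deprived to regular comparison 0 genes were called, 0 to 1 without 1 array, 6 with array weights, 3 with only 2 diets in the fit, and 1 with the 50% filter, the B cell or the myeloid covariate or a threshold of 0.1. Of all genes, 1.99% were lower and 6.19% higher there with array weights, and 0.607% and 3.68% with only 2 diets. Supplemented against deprived gave 23, and 14 with the myeloid covariate and 0 with array spread, and the F test 23, with 13 and 0 under those covariates. With the myeloid covariate, 16.9% of all genes were lower and 4.86% higher on the supplemented than on the deprived diet. With array spread as covariate, signs reversed for Rfc3 against the regular diet (0.06) and for Rfc3 (0.29), Rpa2 (0.10) and Cdk4 (0.20) against the deprived diet, and no other called gene reversed in any alternative. Of the 8 pairs, 5 differed, 3 after cyclic loess, 3 to 6 without 1 array and 0 without supplemented replicates 2 and 5, where the 5 changed by -0.95 to 0.67 in the same directions. With array spread as covariate, fitted without a test, Cdk4 minus Cdk6 was at -0.15 (SE 0.28) and Cdt1 minus Gmnn at 0.28 (SE 0.36). Rpa1 minus Rpa2 was at -0.16 (SE 0.14), Ccne1 minus Ccne2 at -0.48 (SE 0.36) and Pold1 minus Pole at 0.33 (SE 0.16) in these fits. Without supplemented replicates 2 and 5, 15 genes were lower than on the regular diet, 14 of them among the 19, against 16% of all genes, and Rrm2 was at -0.65 (adjusted p = 0.162). Over all transcript clusters 15 genes were lower than on the regular diet, against 12.9% of all clusters. Replicate numbers did not pair the arrays, since 4 of 16 same-number pairs had a correlation of deviations over 0.1 (median 0.00256) and 1 of 17 arrays correlated best with its own number. With the replicate number as a block, 20 genes fell and 1 rose against the regular diet (18 of the 19 kept), 0 were called between deprived and regular, and 22 between supplemented and deprived. Of all genes, 22.7% fell and 10.6% rose against the regular diet in that fit, and 29.7% and 19.3% against the deprived diet. Of genes not called, differences of at most 0.2 in size changed sign in some fits, and no direction is read from them. Median centring moved the median of all genes from 0.001 to -0.103 between supplemented and deprived. The cause of the other changes was not tested. The number of arrays, and no batch record, limit what small differences can show.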
